A study of Mus musculus with 2 samples.

Results

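The 10 genes described here encode chemokine ligands, small secreted proteins that draw leukocytes along a concentration gradient: Cxcl1, Cxcl2, Pf4, Cxcl10, Ccl2, Ccl3, Ccl4, Ccl5, Ccl6 and Ccl9. They were taken by symbol, through gene IDs and the GENCODE M21 annotation, from 21461 nuclear protein-coding genes among 43346 mouse gene IDs. All 10 had a row in both libraries, and genes at 0 counts were kept. They were chosen by symbol with their TPM (a transcript's share of the library, corrected for length) and expected counts in both libraries known, so levels and differences between libraries are given as a description and carry no test.

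Total RNA was sequenced from 2 libraries labelled megakaryocyte, the bone marrow cell that sheds platelets. Both came from primary cells of male adult C57BL/6J mice aged 5 to 6 weeks, and no treatment or altered allele is named. For each library 100 ng of RNA was depleted of ribosomal RNA and prepared with the ScriptSeq kit. The libraries are numbered 2 and 1 as in the labels, are given as biological replicates of 1 group and name the same donor, so the spread between them may be technical. Only the title of the isolation protocol, which names erythroid cells and megakaryocytes of bone marrow, was used here. There was no second condition, and the comparisons are between the ligands within a library and between library 2 and library 1.

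Chemokines act through receptors with a matching name. Cxcl1 and Cxcl2 bind Cxcr2 and recruit neutrophils, Cxcl10 is induced by interferon and binds Cxcr3 on activated T cells and natural killer cells, and Ccl2 binds Ccr2 and calls monocytes out of bone marrow. Ccl3, Ccl4 and Ccl5 attract monocytes and T cells, the mouse ligands Ccl6 and Ccl9 act through Ccr1 and are made by resting myeloid cells, and Pf4 is platelet factor 4, stored in platelet granules. Many of these genes are switched on rapidly by the transcription factor NF-kB, and the mRNAs of several are short-lived because of AU-rich elements, copies of ATTTA in the 3′ untranslated region (UTR) that decay factors such as Zfp36 recognise.

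The promoters of Cxcl1, Cxcl2 and Pf4 are shown because these genes share a cluster on chromosome 5 and differed widely in level. Each is the stretch of 250 bases before the RefSeq start, from RefSeq on GRCm38.p6, written 5′ to 3′ with capitals marking the kappa-B motif, here GGG and TTTCC with any 2 bases between them, on either strand.
Cxcl1 promoter, chr5:90890995-90891244, + strand: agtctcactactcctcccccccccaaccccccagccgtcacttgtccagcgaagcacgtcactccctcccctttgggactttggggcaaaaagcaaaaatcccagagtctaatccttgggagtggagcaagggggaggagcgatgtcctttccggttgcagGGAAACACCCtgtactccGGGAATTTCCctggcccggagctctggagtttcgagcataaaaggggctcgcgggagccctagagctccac
Cxcl2 promoter, chr5:90903649-90903898, + strand: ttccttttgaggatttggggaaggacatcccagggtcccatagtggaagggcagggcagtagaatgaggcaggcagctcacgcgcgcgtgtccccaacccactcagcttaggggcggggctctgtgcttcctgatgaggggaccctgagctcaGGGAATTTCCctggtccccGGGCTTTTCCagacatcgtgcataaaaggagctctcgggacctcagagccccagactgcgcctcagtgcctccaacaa
Pf4 promoter, chr5:90772185-90772434, + strand: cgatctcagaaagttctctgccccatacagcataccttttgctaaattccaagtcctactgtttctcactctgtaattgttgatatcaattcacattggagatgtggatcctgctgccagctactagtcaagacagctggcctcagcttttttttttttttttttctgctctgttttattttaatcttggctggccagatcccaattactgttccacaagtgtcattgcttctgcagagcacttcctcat
The match GGGAATTTCC lay 71 to 62 bases before the start in Cxcl1 and 97 to 88 bases before it in Cxcl2, inside an identical run of 14 bases, GGGAATTTCCCTGG. Each of these promoters held a second match, GGAAACACCC in Cxcl1 and GGGCTTTTCC in Cxcl2, and Pf4 held none.

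Promoters were at hand for 7 of the 10 ligands, all but Ccl2, Ccl4 and Ccl5. That motif occurred in 3 of the 7 (Cxcl1, Cxcl2 and Ccl9), against 1.41% of 32851 promoters of the same length. A narrower form, with A as the first of the 2 free bases and all its matches inside the broader one, occurred in Cxcl1 and Cxcl2 and in 0.356% of promoters. The interferon response motif, GAAA and GAAA with any 2 bases between them, occurred in Cxcl10 alone among the 7, as GAAAGTGAAA 213 to 204 bases before the start, against 2.98% of promoters. TATAAA occurred in Ccl9 alone, against 12.4%. Both strands were searched, and a match describes letters and not a bound site.

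The 3′ UTR stretches richest in ATTTA are shown for the ligands with the densest copies, since the decay factors bind there. Each is 30 bases long, read from GENCODE M21 transcripts on mm10 along the gene's strand, with ATTTA in capitals.
Cxcl2 3′ UTR, chr5:90905327-90905356, + strand: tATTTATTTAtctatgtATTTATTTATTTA
Cxcl1 3′ UTR, chr5:90892602-90892631, + strand: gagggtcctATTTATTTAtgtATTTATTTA
Ccl3 3′ UTR, chr11:83648085-83648114, - strand: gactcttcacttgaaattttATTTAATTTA
The whole 3′ UTR held 11 copies of ATTTA in Cxcl2, 7 in Cxcl1 and 5 in Ccl3. Among 3′ UTRs within 20% of the same length, 0.0902%, 0.338% and 1.02% held at least as many. Cxcl2 also held 4 and Cxcl1 2 copies of the longer element TTATTTATT, whose matches contain ATTTA and which the other 8 ligands lacked; 6.6% of 19803 annotated 3′ UTRs held it. Ccl9 had 5 copies of ATTTA over 2465 bases and Ccl6 had 4 over 943 bases, and 41.4% and 15.1% of UTRs of like length held at least as many. Cxcl10 and Ccl4 had 2 copies each, Ccl2 and Pf4 1 each, and Ccl5 had 0.

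Summed expected counts, the estimated reads of all genes, were 50532821 in library 2 and 42703213 in library 1. For a gene of 1000 effective bases, 1 TPM stood for 114 counts in library 2 and 100.2 in library 1. Nuclear protein-coding genes held 26.8% of all TPM in library 2 and 24.0% in library 1, so the TPM values are low against tables of mRNA alone. The megakaryocyte markers went against the label, with 2 of 12 at 1 TPM or more in both libraries, a sum of 11.04 TPM in library 2 and 9.44 TPM in library 1, and Gp5, Mpig6b and Gp6 among those at 0 in both. Sums were 13871 and 14686 TPM for 10 neutrophil markers, 2123 and 1793 TPM for 8 monocyte markers and 255 and 218 TPM for 8 basophil and mast cell markers, library 2 before library 1. In bulk RNA fewer cells of a type and less RNA per cell cannot be told apart, and the cell that made each ligand was not measured.

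Most of the chemokine RNA came from the myeloid ligands Ccl6 and Ccl9. Together they made up 68.7% of the TPM of all 37 chemokine ligands measured in library 2 and 75.3% in library 1, and the 10 ligands together 97.1% and 96.9%. Of the 10, 8 stood at 1 TPM or more in both libraries, against 42.4% of nuclear protein-coding genes. Their median level was 7.01 TPM, against 0.28 TPM for all such genes. By mean TPM ± SD (n = 2) the order was Ccl6 (160.1 ± 3.83), Ccl9 (77.3 ± 0.453), Ccl3 (53.3 ± 10.8), Ccl4 (11.6 ± 3.65), Ccl2 (7.56 ± 1.55), Cxcl2 (6.46 ± 6.98), Ccl5 (2.37 ± 0.566), Cxcl10 (1.87 ± 0.304), Cxcl1 (0.045 ± 0.0636) and Pf4 (0.04 ± 0.0566). The first 4 kept this order in both libraries. Ccl2 and Cxcl2, Ccl5 and Cxcl10, and Cxcl1 and Pf4 are neighbours whose library values overlapped, and the values of Cxcl2 spanned those of Ccl2, Ccl5 and Cxcl10.

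**Figure D1:**
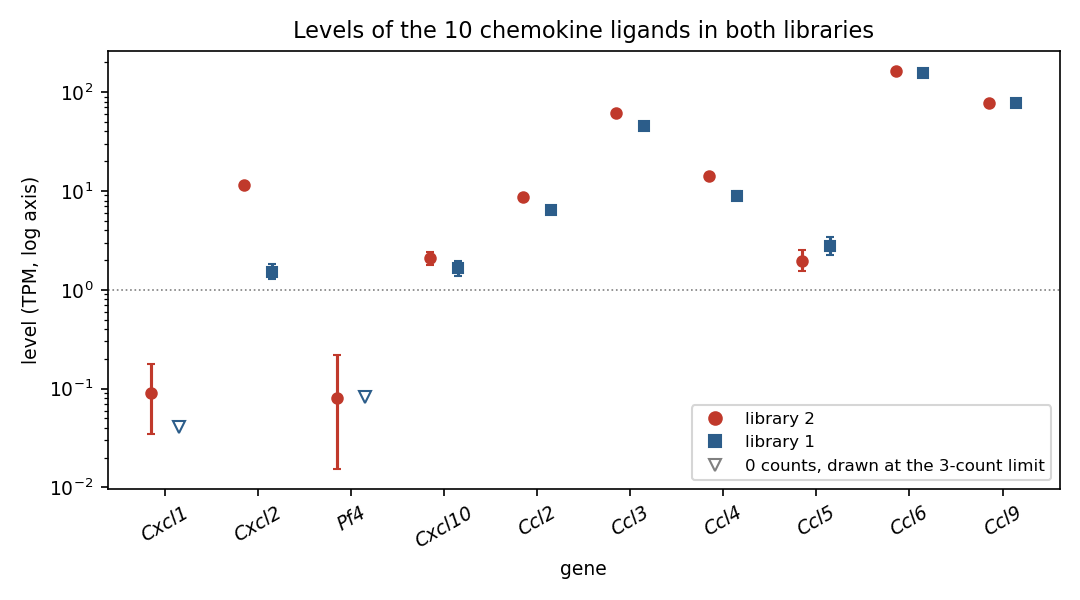
Level of each ligand in TPM on a log axis, with a red circle for library 2 and a blue square for library 1; bars are exact 95% Poisson intervals of the counts, open triangles stand at the limit that 3 counts allow for a count of 0, and the dotted line is 1 TPM. The pair of points is wide apart for Cxcl2, at 11.4 TPM in library 2 and 1.53 TPM in library 1, and nearly level for Ccl6 and Ccl9.

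Among the ligands that attract neutrophils, Cxcl2 was expressed and its neighbour Cxcl1 was close to 0. Cxcl2 (chromosome 5, 90903871 to 90905938, plus strand, mm10) had 1063 counts and 11.4 TPM in library 2, against 127 counts and 1.53 TPM in library 1. Cxcl1 (chromosome 5, 90891241 to 90893115, plus strand) had 7 counts and 0.09 TPM in library 2 and 0 counts in library 1, where 3 counts would be 0.0410 TPM. Per effective length Cxcl2 exceeded Cxcl1 133-fold in library 2 (exact 95% interval 64.4 to 332). In library 1 the ratio was 37.2-fold with Cxcl1 set at 3 counts, which is not a 95% bound. These intervals and limits cover counting error alone, because no molecular identifiers mark which reads are copies of one molecule. The longest run of bases that the Cxcl1 and Cxcl2 transcripts share is 23, and the expected counts of all 10 ligands were whole numbers.

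Cxcl2 was also the ligand that differed between the libraries. After scaling by TMM (trimmed mean of M-values, which levels library sizes), it was 7.06-fold higher in library 2 (log2 ratio 2.82, exact 95% counting interval 2.55 to 3.10). Among the 8 ligands averaging at least 10 counts it was the only one past 2-fold, where 9.96% of 12081 genes were past 2-fold either way, 4.59% higher and 5.37% lower in library 2. Among 10175 genes averaging at least 100 counts, 2.09% were past 2-fold either way and 0.914% that much higher in library 2, and the ratio of Cxcl2 ranked 2 among them. The nearest ratios belonged to N4bp3, with 192 counts in library 2 and 23 in library 1 (2.82), Gm14410, with 248 and 31 (2.75), and Lsm7, with 177 and 27 (2.47); likeness here is the difference of log2 ratios over 2 libraries. Beside it, 7 of 8 monocyte markers were higher and 9 of 10 neutrophil markers lower in library 2, with no member of either list past 2-fold or at 0. The erythroid markers differed more: 7 of 8 were lower in library 2, 5 of them past 2-fold, none was at 0 in both, and their sum was 25.25 TPM for library 2 and 46.01 TPM for library 1. The part of these lists in the result was not tested.

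**Figure D2:**
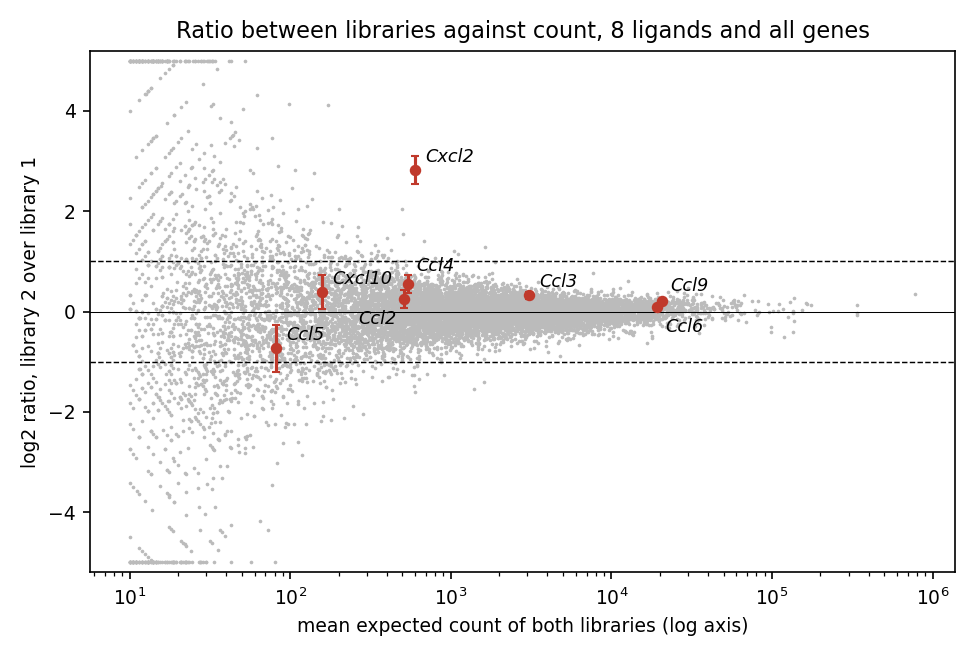
Log2 ratio of scaled counts, library 2 over library 1, against the mean expected count on a log axis, for 8 ligands (red, with exact 95% counting intervals) and the 12081 genes averaging at least 10 counts (grey, drawn within 5 of 0); dashed lines mark 2-fold. Cxcl2 stands at 2.82, far outside the grey band at its count, while Ccl2, Ccl3, Ccl4, Ccl6, Ccl9 and Cxcl10 lie between 0.09 and 0.55.

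Pf4, a platelet chemokine that megakaryocytes make in quantity, was near the limit of detection. Pf4 (chromosome 5, 90772435 to 90773383, plus strand) had 3 counts and 0.08 TPM in library 2 and 0 counts in library 1, where the 3-count limit is 0.0826 TPM. Cxcl2 exceeded Pf4 152-fold per length in library 2 (51.8 to 737). In library 1 the ratio was 18.5-fold with Pf4 set at 3 counts, which is not a lower bound. Ppbp, the other platelet chemokine of the cluster, had 7 counts in library 2 and 0 in library 1. The neighbouring Cxcl5, Cxcl3 and Cxcl15, further ligands of the CXC class, had 0 counts in both, so that of the 7 genes placed from −145 to 0 kb relative to the start of Cxcl2, Cxcl2 alone reached 1 TPM.

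Cxcl10, the interferon-induced ligand (chromosome 5, 92346638 to 92348889, minus strand), was low in both libraries and slightly higher in library 2. It had 191 counts and 2.08 TPM in library 2 and 123 counts and 1.65 TPM in library 1, a log2 ratio of 0.39 (0.05 to 0.73). Of the ligands beside it with the same receptor, Cxcl9 had 57 counts and 0.19 TPM in library 2 and 41 counts and 0.15 TPM in library 1, and Cxcl11 had 0 in both. Art3 overlaps Cxcl10 on the opposite strand and had 0 counts.

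Ccl2, the monocyte chemoattractant (chromosome 11, 82035571 to 82037453, plus strand), was expressed while the genes beside it were silent. It had 601 counts and 8.65 TPM in library 2 and 425 counts and 6.46 TPM in library 1, a log2 ratio of 0.25 (0.07 to 0.44). Ccl7, Ccl11, Ccl12, Ccl8 and Ccl1, the CC ligands that follow it along the chromosome, had 0 counts in both libraries. The limit that 3 counts set for them lay between 0.0310 and 0.0961 TPM in library 2 and between 0.0348 and 0.105 TPM in library 1.

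The second CC cluster of chromosome 11, from Ccl5 to Ccl4, was expressed throughout. Ccl3, also called MIP-1 alpha (83647844 to 83649355, minus strand), had 3682 counts and 60.92 TPM in library 2 and 2479 counts and 45.6 TPM in library 1, a log2 ratio of 0.32 (0.25 to 0.40). Ccl4, or MIP-1 beta (83662584 to 83664683, plus strand), had 684 counts and 14.14 TPM in library 2 and 393 counts and 8.98 TPM in library 1, a log2 ratio of 0.55 (0.37 to 0.74). These divergent neighbours were both somewhat higher in library 2, and Ccl3 stayed above Ccl4 per length, 4.31-fold in library 2 (3.97 to 4.68) and 5.08-fold in library 1 (4.56 to 5.66). Ccl3 exceeded Cxcl2 5.34-fold per length in library 2 and 29.9-fold in library 1.

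Ccl6 and Ccl9 were the most abundant ligands and the steadiest in TPM. Ccl6 (83587882 to 83593087, minus strand) had 21535 counts and 162.81 TPM in library 2 and 17111 counts and 157.39 TPM in library 1. That put it at rank 250 in library 2 and rank 238 in library 1 among nuclear protein-coding genes, and its log2 ratio of counts was 0.09 (0.06 to 0.11). Ccl9 (83572919 to 83578636, minus strand) had 23908 counts and 77.61 TPM in library 2 and 17458 counts and 76.97 TPM in library 1, a log2 ratio of counts of 0.21 (0.18 to 0.24) and of TPM of 0.01. Per length Ccl6 exceeded Ccl9 2.10-fold in library 2 and 2.04-fold in library 1. The noncoding gene E230016K23Rik overlaps Ccl6 on the opposite strand and had 363 counts in library 2 and 286 in library 1; whether the counting used strand is not given in the sources used here, so reads could pass between the pair.

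Ccl5, or RANTES (83525778 to 83530518, minus strand), was the ligand that was lower in library 2. It had 68 counts and 1.97 TPM in library 2 and 95 counts and 2.77 TPM in library 1, a log2 ratio of −0.73 (−1.20 to −0.26). This is the gene total: the coding transcript alone had 63.88 counts in library 2 and 64.3 in library 1, a log2 ratio of −0.25. T cells and natural killer cells are known sources of Ccl5, and 7 of their 10 markers were also lower in library 2. Of the 10, 3 were past 2-fold lower (Gzma, Ncr1 and Cd3e), against 5.37% of 12081 genes. Cd8a, at 19 counts in library 2 and 6 in library 1, was past 2-fold higher, against 4.59% of genes. These 4 are named after their values were seen. The sum over the 10 markers was 23.72 TPM for library 2 and 37.57 TPM for library 1, and none was at 0 in both. The part of these markers in the Ccl5 value was not tested.

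**Figure D3:**
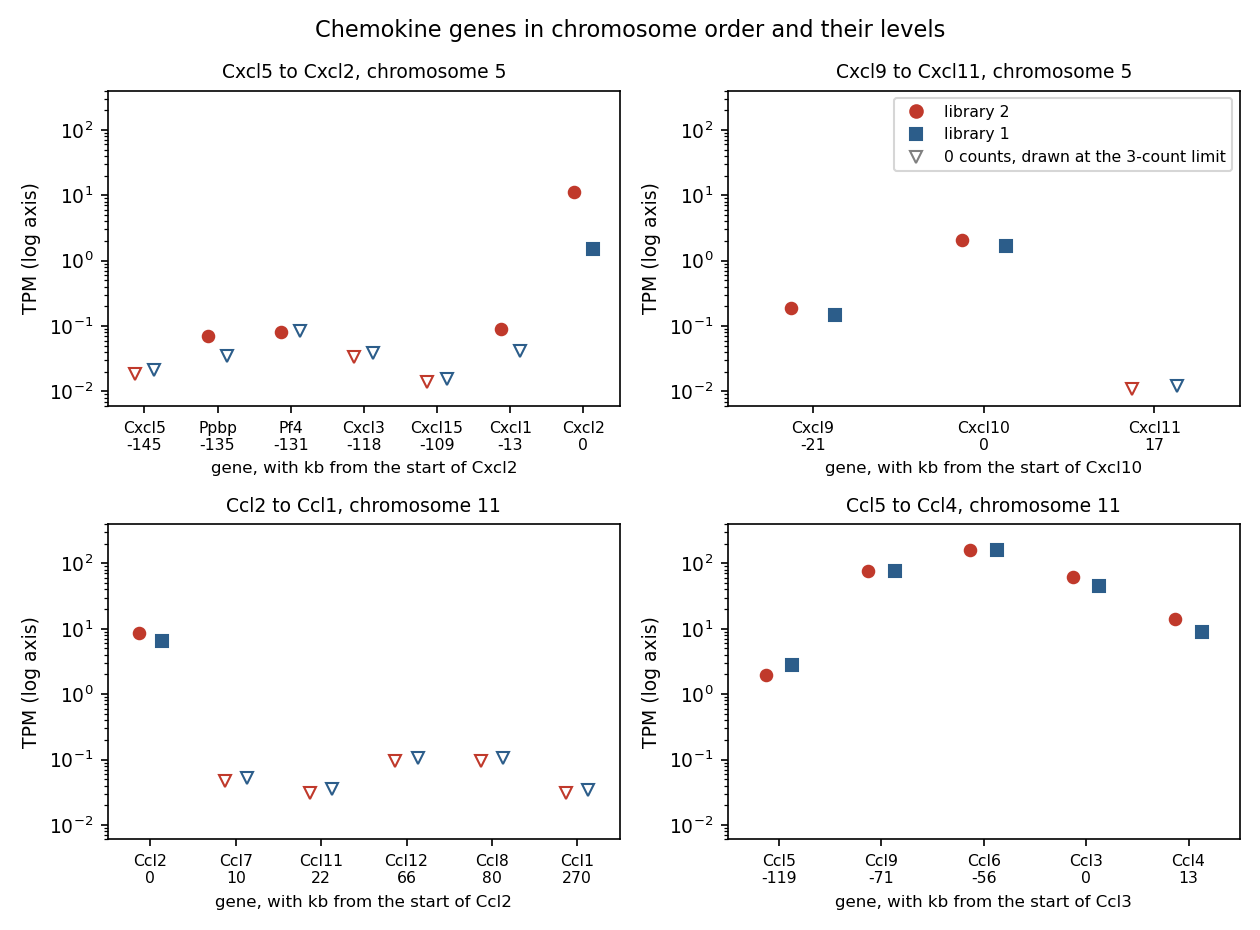
TPM on a log axis of the chemokine genes of 4 chromosomal groups, in chromosome order with the distance in kb from one gene's start under each name; red circles are library 2, blue squares library 1 and open triangles the 3-count limit for genes at 0 counts. Cxcl2, Cxcl10 and Ccl2 each stand alone above 1 TPM in their groups. In the group from Ccl5 to Ccl4 all 5 genes stand above 1 TPM in both libraries.

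Across the 8 ligands averaging at least 10 counts, 7 were higher in library 2 and 1 in library 1, where 50% of all 12081 genes were higher in library 2. Their median log2 ratio was 0.29, against 0.00 for all genes. No counting interval of the 8 held 0, but these intervals cover counting error alone. At high counts they exclude 0 even for a small ratio, such as 0.09 for Ccl6. The share of all genes whose interval excludes 0 was not computed. Without Cxcl2 the positive ratios ran from 0.09 to 0.55, which is within 2-fold. Cxcl1 and Pf4 had too few counts for a ratio.

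The transcript tables showed a difference that the gene totals do not carry. Of the 10 ligands, 5 (Ccl2, Ccl5, Ccl6, Ccl9 and Cxcl10) have both coding and noncoding annotated transcripts, and in all 5 the noncoding share of the gene's TPM was lower in library 2, as it was in 48.6% of the 5242 genes with both kinds and at least 1 TPM per library. Ccl6 had 5.42% in library 2 and 19.4% in library 1, and Ccl9 had 2.58% in library 2 and 19.9% in library 1. Ccl5 had 4.06% in library 2 and 24.9% in library 1, Ccl2 had 11.6% and 23.6%, and Cxcl10 had 7.21% and 17.0% in the same order. All 5 were at least 5 percentage points higher in library 1, as were 25.7% of those genes, while 20.7% were that much higher in library 2. The medians over those genes were close together, at 10.97% in library 2 and 11.75% in library 1.

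The main noncoding form of Ccl6, the retained-intron transcript Ccl6-202, had 312.78 counts in library 2 and 1636.62 counts in library 1. For Ccl9 it was Ccl9-202, a processed transcript of 398 bases, with 37.75 counts in library 2 and 272.91 counts in library 1. Because that transcript is short, few counts weigh heavily in TPM: as a share of expected counts the noncoding part of Ccl9 was 0.158% in library 2 and 1.56% in library 1. By counts, Ccl2, Ccl5 and Ccl6 still differed by at least 5 points and Ccl9 and Cxcl10 did not. The labels give a lower size limit of 200 nucleotides for library 2 and 221 for library 1, whose part in these shares was not tested.

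With coding transcripts alone, the 2 most abundant ligands were less level. Ccl6 then had 153.99 TPM in library 2 and 126.77 TPM in library 1, a log2 ratio of TPM of 0.28, and Ccl9 had 75.62 TPM in library 2 and 61.65 TPM in library 1, a log2 ratio of 0.29. Ccl2 reached a log2 ratio of counts of 0.54, against 0.25 for the gene total. Ccl5 had 63.88 coding counts in library 2 and 64.3 in library 1, a log2 ratio of −0.25, so most of the gap in its gene total lay in the retained-intron transcript Ccl5-202, with 4.12 counts in library 2 and 30.7 in library 1. Cxcl2, with a single transcript, kept its ratio of 2.82.

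**Figure D4:**
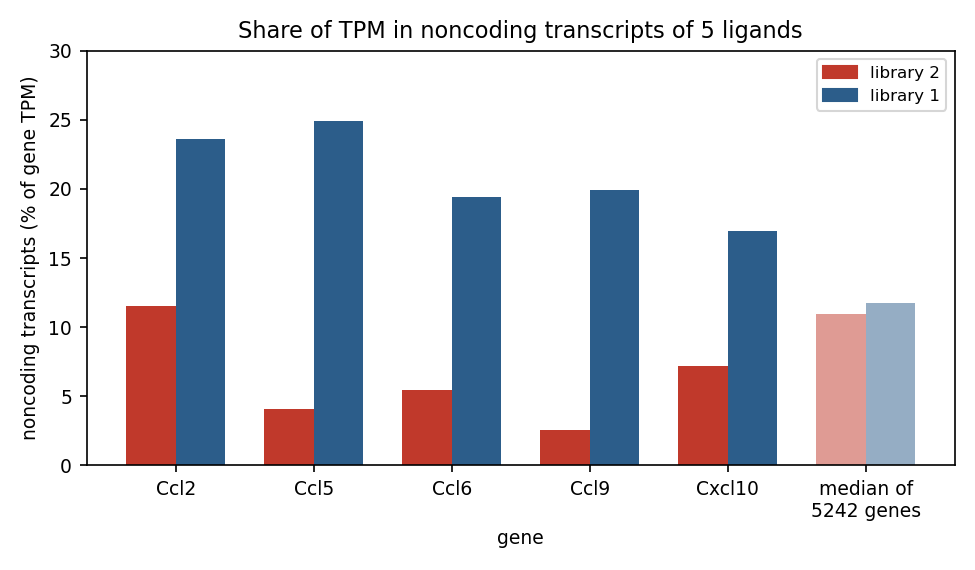
Percent of each gene's TPM assigned to noncoding transcripts, red bars for library 2 and blue bars for library 1, with the median over all genes that have both kinds of transcript in paler colours. The share is lower in library 2 for all 5 ligands, from 2.58% to 11.6% against 17.0% to 24.9% in library 1, while the medians over all such genes are 10.97% and 11.75%. The Cxcl10 bars rest on 2 noncoding counts in library 2 and 3.61 in library 1.

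Few other chemokine ligands were expressed. Of 27, 17 had 0 counts in both libraries and 4 stood at 1 TPM or more in both. These were Xcl1, a ligand made by natural killer and T cells, at 3.69 TPM in library 2 and 3.43 TPM in library 1, the marrow homing ligand Cxcl12 at 2.65 and 3.17 TPM, Ccl25 at 1.73 and 1.27 TPM, and Ccl27a at 1.22 and 1.29 TPM. Ccl25, a ligand of thymus and gut, was past 2-fold, alone among the 6 that averaged at least 10 counts. Of all 12081 genes at such counts, 9.96% were past 2-fold either way. Ccl25 had 153 counts in library 2 and 46 in library 1, but its TPM values lay within 2-fold.

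Among receptors of the 10 ligands, that of Ccl2 was far ahead. Ccr2 stood at 450.73 TPM in library 2 and 383.26 TPM in library 1. Ccr1, which binds Ccl3, Ccl5, Ccl6 and Ccl9, stood at 25.96 TPM in library 2 and 23.57 TPM in library 1. Cxcr2, the receptor of Cxcl1 and Cxcl2 and a neutrophil marker, stood at 21.22 TPM in library 2 and 26.56 TPM in library 1, while Cxcr1 had 5 counts in library 2 and 0 in library 1. Cxcr3, which binds Cxcl10, was at 1.14 TPM in library 2 and 1.01 TPM in library 1. Cxcr4, the Cxcl12 receptor, had 84.24 TPM in library 2 and 79.79 TPM in library 1, and Cx3cr1, the fractalkine receptor of monocytes, had 30.65 and 27.97 TPM. Xcr1, Ccr9 and Ccr10, the receptors of Xcl1, Ccl25 and Ccl27a, were at 0.05, 0.3 and 0.02 TPM in library 2 and at 0.08, 0.26 and 0.09 TPM in library 1, and are named after their values were seen.

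Of 23 receptors, 8 reached 1 TPM in both libraries. Among all 12081 genes averaging at least 10 counts, 4.59% were past 2-fold higher in library 2 and 5.37% lower. Of the 15 receptors averaging at least 10 counts, 3 were past 2-fold higher in library 2 and 2 past 2-fold lower. Ccrl2, an atypical receptor that binds chemerin and does not signal, was the one of these averaging at least 100 counts: it had 613 counts and 2.87 TPM in library 2 and 188 counts and 0.99 TPM in library 1, a 2.75-fold ratio (2.33 to 3.25). The others, Cxcr6, Ccr6, Ackr1 and Ackr4, had from 5 to 139 counts in library 2 and from 3 to 37 in library 1, and are named here after their values were seen.

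The NF-kB genes include the subunits, kinases and inhibitors of the pathway that drives Cxcl1 and Cxcl2, and all were expressed. Cxcl2 was 7.06-fold higher in library 2. None of the 14 NF-kB genes was past 2-fold, where 9.96% of 12081 genes were past 2-fold either way. All 14 reached 1 TPM in both libraries, and their median log2 ratio was −0.03. Of the 14, 6 were higher and 8 lower in library 2, with log2 ratios from −0.43 to 0.54. The highest was that of Tnfaip3 (0.46 to 0.63), named after its values were seen. These are mRNA levels, and the activity of the pathway was not measured. Nfkb1, which encodes the p50 subunit, stood at 52.33 TPM in library 2 and 44.91 TPM in library 1, and the kinase genes Ikbkb and Chuk at 40.74 and 40.98 TPM and at 19.37 and 20.63 TPM. The inhibitor gene Nfkbia, itself an NF-kB target, had 17.15 TPM in library 2 and 13.05 TPM in library 1.

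Of 16 inflammatory genes that are commonly induced along with these chemokines, 11 reached 1 TPM in both libraries. Of all 12081 genes averaging at least 10 counts, 9.96% were past 2-fold either way, and of 12 such genes in this list 1 was. That gene was Ptgs2, which encodes cyclooxygenase 2, with 779 counts and 1.62 TPM in library 2 and 225 counts and 0.53 TPM in library 1, a 2.92-fold ratio (2.51 to 3.40). The most abundant were Plaur, the urokinase receptor, at 18.95 TPM in library 2 and 19.83 TPM in library 1, and Clec4e, a receptor for mycobacterial glycolipid, at 11.97 and 10.79 TPM. Il1rn, the interleukin 1 receptor antagonist, was at 9.85 TPM in library 2 and 8.89 TPM in library 1, and Osm, oncostatin M, at 10.76 and 7.92 TPM. The list median was a log2 ratio of 0.25.

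The immediate early genes, transcription factors and signal regulators that respond within minutes to stress or handling, ranged widely in level. At 5 TPM or more in both libraries were 6 of 10. The lowest by mean TPM was Egr1, named after its values were seen, at 1.63 TPM in library 2 and 1.06 TPM in library 1. Of 10, 9 stood at 1 TPM or more in both, led by Fos at 106.8 TPM in library 2 and 106.99 TPM in library 1, Jun at 38.63 and 40.29 TPM, Junb at 34.12 and 27.21 TPM and Ier2 at 17.22 and 16.23 TPM. Past 2-fold was 1 of the 10, where 9.96% of 12081 genes were past 2-fold either way. It was the stress-induced factor Atf3, with 2438 counts and 16 TPM in library 2. In library 1 Atf3 had 844 counts and 4.79 TPM, a 2.44-fold ratio (2.25 to 2.64). Egr2, named after its values were seen, was within 2-fold by counts, at 58 in library 2 and 96 in library 1, but not by TPM, at 0.39 and 3.3. The list median was a log2 ratio of −0.03.

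Factors that bind or regulate AU-rich mRNAs were at 1 TPM or more in 7 of 8 cases. None was past 2-fold, where 9.96% of 12081 genes were past 2-fold either way. Of the 8, 7 were lower in library 2, where 50% of all 12081 genes were higher. The list median was a log2 ratio of −0.25. Mapkapk2, the kinase that inactivates Zfp36, was the exception at 59.41 TPM in library 2 and 52.14 TPM in library 1. Zfp36, which encodes tristetraprolin, stood at 43.19 TPM in library 2 and 47.52 TPM in library 1, its relative Zfp36l2 at 33.34 and 41.66 TPM, and Hnrnpd, which encodes AUF1, at 27.65 and 50.47 TPM. By counts the log2 ratio of Hnrnpd was −0.42.

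Interferon pathway genes were mostly expressed, and their median ratio was close to level, beside the small difference in Cxcl10. Of the 14 averaging at least 10 counts, 8 were higher and 6 lower in library 2, where 50% of all genes were higher. Their log2 ratios ran from −1.79 to 0.52, a range that holds the 0.39 of Cxcl10. Of 15, 12 reached 1 TPM in both libraries, with Irf9 at 25.29 TPM in library 2 and 24.55 TPM in library 1, Irf1 at 21.08 and 23.14 TPM and Irf7 at 18.95 and 16 TPM. Past 2-fold were 2 of 14, both lower in library 2, where 9.96% of 12081 genes were past 2-fold either way. They are named after their values were seen. Ifng had 22 counts in library 2 and 64 in library 1. Oasl1 had 65 and 115, and its TPM values of 0.36 and 0.59 lay within 2-fold. The list median was a log2 ratio of 0.03, and Ifnb1 had 0 counts in both.

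**Figure D5:**
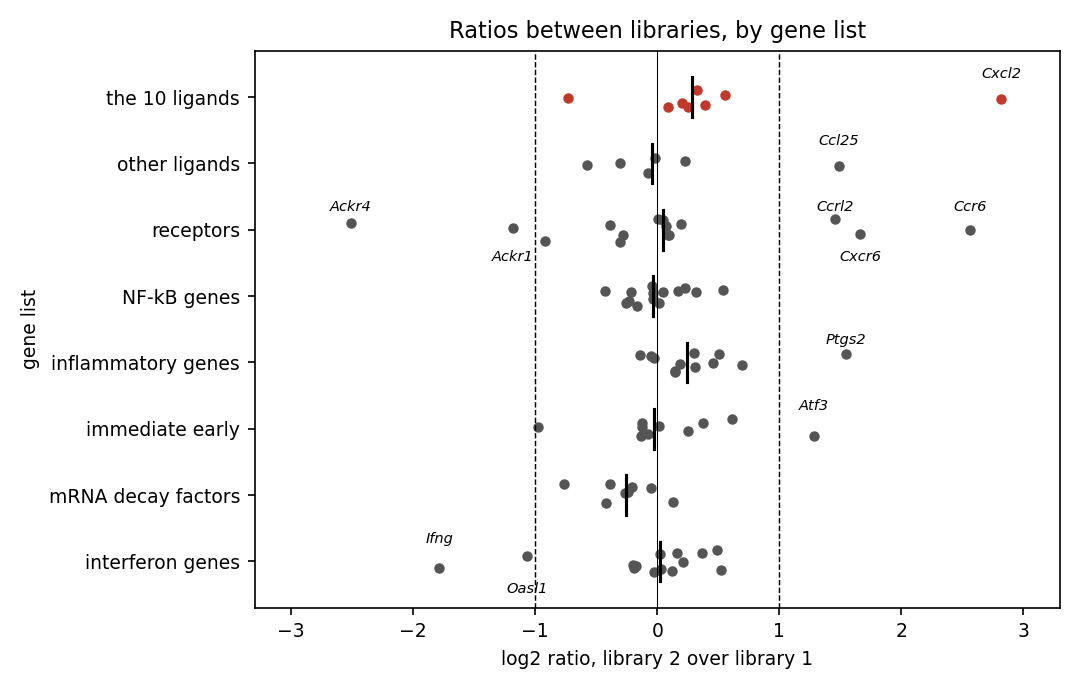
Log2 ratio of scaled counts, library 2 over library 1, for each gene averaging at least 10 counts in 8 lists; each point is a gene, the thick bar the list median and the dashed lines 2-fold, with genes past 2-fold named. The 8 ligands with a ratio have a median of 0.29 and Cxcl2 at 2.82, and the medians of the other lists lie between −0.25 and 0.25.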

How the data were processed

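The deposited gene and transcript tables of both libraries were used; reads were assigned on mm10 with GENCODE M4, per the text files deposited beside the tables. The columns carry RSEM's names; for aligner and quantifier nothing is given in the sources used here. The authors deposited expected counts, which are estimated reads per gene or transcript without normalization. The deposited TPM values, and a deposited posterior mean TPM, are length-corrected shares of each table's total. Each transcript's percent of its gene's TPM and effective lengths in bases, both deposited by the authors, were also used. The ratio, fold and log2 values were computed here and none was deposited by the authors.

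Symbols, types and positions came from GENCODE M21, matched on unversioned gene IDs (42462 of 43346 mouse IDs). Expected counts were rounded and scaled with TMM in edgeR 4.0.16 (R 4.3.3), over the genes averaging at least 10 counts. Ratios carry exact conditional binomial 95% intervals, and counts exact Poisson intervals (SciPy 1.17.1, Python 3.11.15). A call means at least 2-fold, with no p, because 2 libraries of 1 group leave no spread for a test. Genes at 0 were given a limit of 3 counts. The ratio code recovered known folds in tests on simulated data. Noncoding transcripts are those annotated as retained intron or processed transcript. Promoters are from RefSeq, 3′ UTRs from GENCODE M21.

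The ligands and gene lists were chosen with earlier results of these data known. Named are all 10 ligands, from each list the 4 with the highest mean TPM and any past 2-fold at a mean count of 100 or more, receptors of the ligands, neighbouring chemokine genes and the 3 genes with the ratio nearest that of Cxcl2. Alternatives were DESeq2 1.42.0 size factors, summed protein-coding counts, deposited TPM, other thresholds, each library left out, count shares and a relaxed kappa-B motif. A few genes under this rule are not reported here, though their lists still count them. Protein sequences were not analysed here.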

Additional observations from a re-analysis of the deposited data

How the results depend on the processing

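No paired analysis was possible because there is 1 group and no contrast between groups. At 5 TPM, 5 ligands in place of 8 and 39 pathway genes in place of 65 passed in both libraries. Without a filter on low counts, 3 ligands in place of 1 were past 2-fold, since Cxcl1 and Pf4 at 0 in library 1 then count, and at 1.5-fold there were 2, Cxcl2 and Ccl5. By expected counts, 3 in place of 5 ligands had a noncoding share at least 5 points lower in library 2, though all 5 were lower. Leaving out 1 library gave 8 to 8 ligands and 66 to 67 pathway genes at 1 TPM. Cxcl2 ranged from 2.80 to 2.90 on the log2 scale under every scaling tried. The relaxed kappa-B motif matched 4 of the 7 promoters, against 7.25% of all. Rescaling TPM to nuclear protein-coding genes multiplied levels by 3.73 in library 2 and 4.17 in library 1. Ratios from coding transcripts alone, an alternative chosen after seeing the data, left 1 ligand past 2-fold. At 1.5-fold, 15 pathway genes in place of 10 were past the call, and no share of all genes was computed at 1.5-fold. No ligand's ratio changed sign under these alternatives.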
